A study of Mus musculus with 2 samples.

Results

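Heat shock genes encode molecular chaperones, and 10 of them were examined in pancreatic islets of control mice and of mice with the RbΔK7 knock-in: Hspa1a, Hspa1b, Hspa8, Hsph1, Dnajb1, Hsp90aa1, Hspd1, Hspe1, Hspb1 and Cryab. Every array probe carrying one of these names was taken, which gave 15 of the 55681 probes and 9 of the 10 genes. No probe was named Hspa1b. The Hspa1a probe also lists the Hspa1b transcript, so the 2 genes cannot be told apart here and the value printed as Hspa1a stands for both. Of the 9 genes, 5 had 1 probe, 2 had 2 (Hsph1, Cryab) and 2 had 3 (Hspa8, Hspe1).

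RbΔK7 is a form of the retinoblastoma protein that is resistant to phosphorylation, introduced by knock-in rather than by a tissue-specific transgene, and the mutant islets came from mice that carry it. The labels describe the comparison islets as control and give no strain, sex, age or further allele for either genotype. Islets were freed with collagenase through the common bile duct, hand-picked and frozen, so they hold endocrine cells and whatever other cells were attached to them. Each of 2 arrays carried 1 control sample (dye Cy3) and 1 mutant sample (dye Cy5) from separately grown and harvested replicates 1 and 2, called pair 1 and pair 2 here. The dyes were never exchanged, so for any probe a genotype difference and a dye difference cannot be told apart.

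Heat shock proteins bind unfolded proteins and keep them from clumping until they refold or are degraded. Their genes are switched on by heat shock factor 1 (Hsf1) when proteins unfold, through short repeats of the unit GAA and its reverse complement TTC in their promoters, while several of them are also made without stress. Beta cells fold and secrete large amounts of insulin, and taking islets out of the pancreas is itself a known trigger of stress genes.

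The probe read as Hspa1a lies on chr17:35107117-35107176 (mm9, minus strand) and starts at base 1925 of its transcript. It is shown beside the Hspa8 probe with which it shares its longest run, because Hspa8 encodes the closely related constitutive Hsp70. The capitals mark the shared run of 9 bases, in probes of 60.
Hspa1a probe: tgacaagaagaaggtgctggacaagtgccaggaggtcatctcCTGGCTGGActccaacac
Hspa8 probe (base 1812): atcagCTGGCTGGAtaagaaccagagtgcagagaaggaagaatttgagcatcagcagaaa
The other 2 Hspa8 probes shared runs of 6 and 7 bases with the Hspa1a probe, and no other probe on the array shared a run longer than 13.

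A pair of Hspe1 probes overlap by 57 bases and match at 56 of them. The stretch around the mismatch, C15T counted from the 5′ end of the probe that starts at base 629, is shown because the 2 probes read nearly the same target and are not independent of each other. The capital marks the differing base.
Hspe1 probe (base 629): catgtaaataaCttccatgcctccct
Hspe1 probe (base 632): catgtaaataaTttccatgcctccct

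Promoters of 7 of the 10 genes were in the RefSeq table for GRCm38.p6, with 10 start sites in all. The 250 bases before each start were searched on both strands for adjoining units, GAANNTTC or TTCNNGAA, with overlapping matches counted together. Such a match was present for 6 of the 7 genes (all but Dnajb1), against 14.5% of the 27025 genes in the table. Counted by start site, it was present in 7 of the 10 and in 12.8% of the 32851 promoters in the table. Matches of 3 adjoining units, GAANNTTCNNGAA or TTCNNGAANNTTC, were found for Hspd1 and Hspe1, and for 0.514% of all genes (0.466% of promoters). These 2 genes lie head to head, and both matches come from 1 run of 4 units between them, a length found in 7 of all the promoters. Capitals mark the units in the stretches below, each 30 bases long.
Hspe1 and Hspd1, chr1:55088053-55088082, plus strand, 89 bases before the Hspe1 start: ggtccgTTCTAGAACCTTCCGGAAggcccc
Hspa1a, chr17:34972242-34972271, minus strand, 104 bases before the start: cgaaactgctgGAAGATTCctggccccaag
Hspb1, chr5:135887791-135887820, plus strand, 117 bases before the start: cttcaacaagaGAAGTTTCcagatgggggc
Hsph1, chr5:149636351-149636380, minus strand, 33 bases before the nearer of its 2 starts: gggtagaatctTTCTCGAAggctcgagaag
Hspa1b, at chr17:34959324-34959353, has the same 30 bases as Hspa1a, and the 250 bases before these 2 genes were identical at 247 positions. A match is a description of letters and was not tested as a binding site.

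None of the 15 heat shock probes passed the test between mutant and control islets. At an adjusted p under 0.05 (limma, over 22266 tested probes) 0 of 15 were higher and 0 lower, against 82 higher (0.368%) and 3 lower (0.0135%) among all tested probes. At an unadjusted p under 0.05, Hspb1 was higher and Hspa1a lower, 1 probe each way, where 8.16% of all tested probes were higher and 3.19% lower. The adjusted p of the heat shock probes ran from 0.261 to 0.998.

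All values below are on the log2 scale: a ratio is mutant over control within an array, and a level is 1 sample's normalized signal, which is not comparable between probes. The ratio was above 0 on both arrays for 5 of the 15 probes (33.3%, against 32.3% of all tested probes) and below 0 on both for 4 (26.7%, against 25.3%). The other 6 had opposite signs. The median ratio of the heat shock probes was 0.05 on the pair 1 array and 0.08 on the pair 2 array, beside 0.02 and 0.02 over all tested probes. The plot of ratios by probe shows that 14 of 15 means lay within 0.5 of 0.

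**Figure D1:**
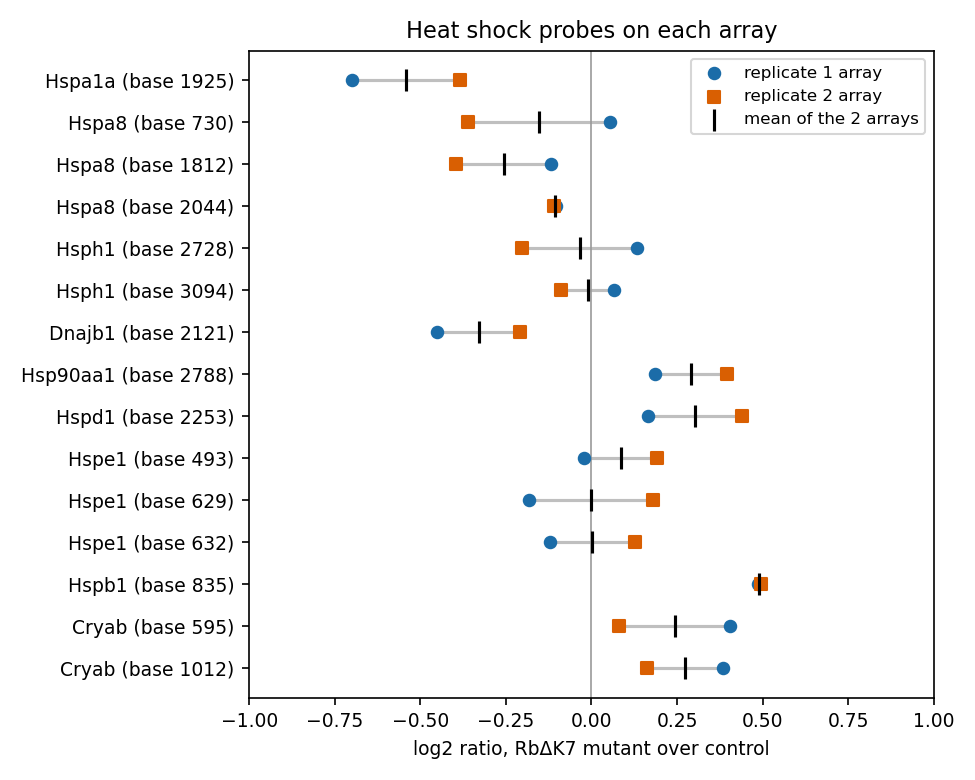
Log2 ratio of RbΔK7 mutant over control for each of the 15 heat shock probes, with the transcript base where each probe starts. Circles are the pair 1 array, squares the pair 2 array and black ticks their mean; Hspa1a has the lowest mean (-0.54), Hspb1 the highest (0.49), and 6 probes lie on opposite sides of 0.

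Both mutant levels were above both control levels for 2 of the 15 probes (Hspd1 and the Cryab probe at base 1012), where 21.9% of all tested probes had such a separation. Both mutant levels were below both control levels for 0 of 15, against 15.6% of all. In the other 13 the genotypes overlapped. The 2 control samples differed from each other by more than the mean ratio in 11 of 15 probes (73.3%, and 56.3% of all tested probes). With the ratios as reported, the 95% intervals of the mean from limma ran from 0.535-fold to 1.76-fold over the 15 probes, and 0 of them reached a 2-fold difference. Other processing gave means beyond 2-fold, among them -1.20 for Hspa1a with Agilent's processed signals and 1.36 for Hspb1 with median centring.

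The inducible Hsp70 (Hspa1a and Hspa1b), the chaperone that is low in unstressed cells and strongly induced by heat, had the lowest ratio of the set. Its levels were 7.89 and 6.62 in control pairs 1 and 2, and 7.19 and 6.24 in mutant pairs 1 and 2. The mutant was below its own control on both arrays, but the genotypes overlapped because both pair 2 samples were low. Its ratios were -0.70 and -0.38, a mean of -0.54 ± 0.22 (SD, n = 2), which is 1.46-fold higher in control (adjusted p = 0.263, limma). The 95% interval was -0.90 to -0.18.

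This probe was dim. Its mean signals before correction were 132 and 57.0 in control, over median array backgrounds of 30 and 25, and 146 and 93.7 in mutant, over 56 and 57. It was well above background in all 4 samples. With Agilent's own processed signals in place of normexp and loess, its ratios were -1.25 and -1.15 and the mean -1.20 (limma adjusted p = 0.277), and with an offset of 0 the mean was -0.96 (limma adjusted p = 0.209). With median centring of each array the mean was -0.27 (limma adjusted p = 0.502). All tested probes had a median of 0.62 in that setting, and the Hspa1a mean minus that median was -0.89.

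Hspa8, the constitutive Hsp70 that also strips clathrin from vesicles, was read by 3 probes on chromosome 9. At base 2044 (chr9:40613223-40613282, mm9) the probe had levels of 14.36 and 14.47 in control and 14.26 and 14.36 in mutant. The 4 samples lay close together and overlapped, and the ratios were -0.10 and -0.11 (averaging -0.11 ± 0.0031, SD, n = 2; adjusted p = 0.832, limma). The probe at base 1812, whose positions span 296 genomic bases and so cross an intron, had levels of 12.40 and 12.83 in control and 12.29 and 12.44 in mutant. Its ratios were -0.12 and -0.40, with pair 2 of the control the highest sample. That at base 730 (chr9:40611142-40611201) had levels of 11.02 and 11.11 in control and 11.08 and 10.75 in mutant, and its ratios of 0.05 and -0.36 disagreed in sign. The 3 Hspa8 means ran from -0.26 to -0.11, a range of 0.15 that is smaller than the largest SD of a single probe between arrays (0.29).

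Hsph1, an Hsp110 that exchanges nucleotide on Hsp70, was read by 2 probes on chromosome 5. The probe at base 3094 (chr5:150419744-150419803) had levels of 9.75 and 10.08 in control and 9.81 and 9.99 in mutant, with ratios of 0.07 and -0.09. The other, at base 2728 (chr5:150420110-150420169) had levels of 8.74 and 8.85 in control and 8.88 and 8.65 in mutant, with ratios of 0.13 and -0.20. Both overlapped between genotypes and disagreed in sign between arrays, and their means were -0.01 and -0.03.

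Dnajb1, the J-domain partner that loads clients onto Hsp70, had levels of 11.15 and 10.36 in control and 10.70 and 10.15 in mutant (chr8:86135660-86135719). Both mutant samples were below their own control, and the genotypes overlapped because pair 2 was low in both. Its ratios were -0.45 and -0.21, a mean of -0.33 ± 0.17 (SD, n = 2; adjusted p = 0.461, limma). With median centring its mean was 0.56, a setting in which all tested probes had a median of 0.62.

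Hsp90aa1, the inducible cytosolic Hsp90, had levels of 10.97 and 11.15 in control and 11.15 and 11.55 in mutant (chr12:111929248-111929307). Mutant pair 2 was the highest sample, and mutant pair 1 was level with control pair 2. The ratios were 0.19 and 0.40, with mean 0.29 ± 0.15 (SD, n = 2; adjusted p = 0.512, limma).

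The mitochondrial chaperonin is built from Hspd1 (Hsp60), the barrel, and Hspe1 (Hsp10), its lid. Hspd1 had levels of 11.07 and 11.12 in control and 11.23 and 11.56 in mutant (chr1:55134697-55134756). Both mutant samples were above both controls, and the ratios were 0.16 and 0.44 (mean 0.30 ± 0.19, SD, n = 2; adjusted p = 0.512, limma).

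Hspe1 did not share that separation. Its probe at base 632 (chr1:55148026-55148085) had levels of 10.99 and 11.17 in control and 10.87 and 11.30 in mutant, with ratios of -0.12 and 0.13. Its overlapping neighbour at base 629 had levels of 10.55 and 10.73 in control and 10.37 and 10.91 in mutant, with ratios of -0.18 and 0.18. In both, mutant pair 1 was the lowest sample and mutant pair 2 the highest, so the controls lay between the mutants. The probe at base 493, whose positions span 327 genomic bases, had levels of 8.55 and 8.71 in control and 8.53 and 8.90 in mutant, in the same order. The difference between the Hspd1 and Hspe1 ratios was not tested.

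Hspb1 (Hsp27), a small heat shock protein that holds unfolding proteins and binds actin, had the highest ratio of the set. Its levels were 9.99 and 10.79 in control and 10.48 and 11.28 in mutant (chr5:136365366-136365425). The mutant was above its own control by nearly the same amount on both arrays, yet mutant pair 1 was below control pair 2, so the genotypes overlapped. The ratios were 0.49 and 0.49, a mean of 0.49 ± 0.0056 (SD, n = 2) or 1.40-fold (adjusted p = 0.261, limma). The 95% interval was 0.17 to 0.81. Pair 2 exceeded pair 1 by 0.80 in control and by 0.81 in mutant, which is more than the genotype ratio.

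Cryab (αB-crystallin), a small heat shock protein abundant in lens and muscle, was read by 2 probes on chromosome 9. The brighter, at base 1012 (chr9:50564566-50564625) had levels of 9.02 and 9.24 in control and 9.40 and 9.41 in mutant. Both mutant samples were above both controls, with ratios of 0.38 and 0.16 (averaging 0.27 ± 0.16, SD, n = 2; adjusted p = 0.545, limma). The dimmer, at base 595 (chr9:50561458-50561517) had levels of 6.62 and 7.16 in control and 7.02 and 7.24 in mutant, and it was not well above background in control pair 1. Its ratios were 0.40 and 0.08 (mean 0.24, limma adjusted p = 0.613), and the mean was 0.51 with Agilent's processed signals, 0.52 with the series matrix and 0.48 with an offset of 0. It was the exception among the 15, since the other 14 were well above background in all 4 samples.

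**Figure D2:**
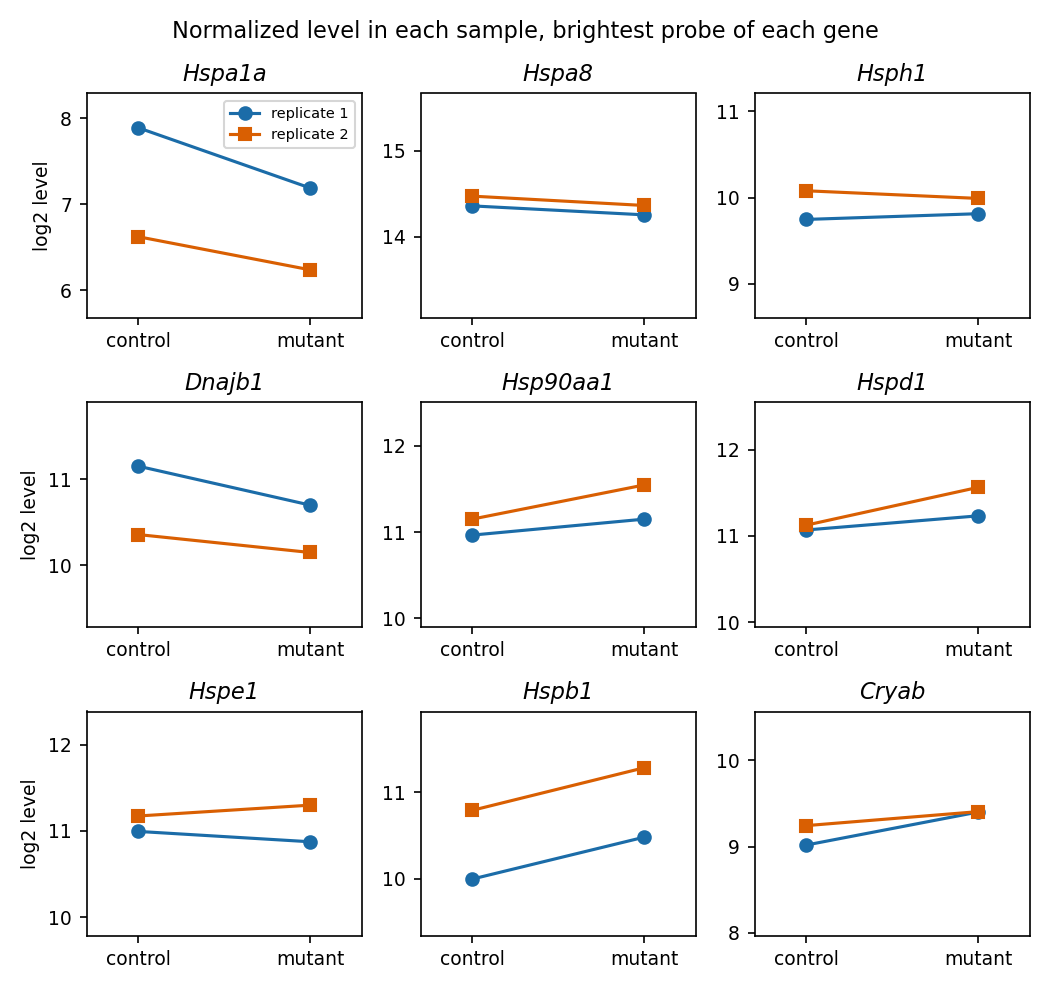
Normalized log2 level of the brightest probe of each of 9 heat shock genes in the 4 samples, with a line joining the control and mutant of a pair and panels of equal height in log2 units. Hspa1a and Dnajb1 were lower in pair 2 than in pair 1 in both genotypes, and Hspb1 was higher in pair 2 in both (10.79 against 9.99 in control).

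Pair 2 differed from pair 1 in the same direction in both genotypes for 13 of the 15 probes. Each pair was read on its own array, so a difference between pairs and a difference between arrays cannot be told apart. Both samples of a pair share the same spots, so the 2 genotypes are not independent readings of a pair difference. Hspa1a and Dnajb1 were the 2 that were lower in pair 2 in both genotypes, and 11 probes (73.3%) were higher in pair 2 in both. Among all tested probes 29.9% were lower and 28.3% higher in both. Hspa1a was lower in pair 2 by 1.26 in control and 0.95 in mutant, and Dnajb1 by 0.79 and 0.55.

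The immediate early genes, transcription factors and feedback regulators that are induced within minutes of cell dissociation, were mostly lower in pair 2 as well. Of 19 listed genes 15 were tested, and 14 of those were lower in pair 2 in both genotypes, all but Klf6. Their median difference was -1.12 in control and -0.84 in mutant. Their summed level was 14.7 in control pair 1, 13.3 in control pair 2, 14.0 in mutant pair 1 and 12.8 in mutant pair 2. Between genotypes 8 of the 15 had ratios below 0 in both pairs and 3 above 0, and Egr1 passed the test, with levels of 11.56 and 8.72 in control and 10.43 and 7.33 in mutant (limma adjusted p = 0.0446). With processed signals, the series matrix, an offset of 0 or both channels as separate samples, 0 of all tested probes passed in limma, Egr1 included. Fosb, Fosl1, Egr2 and Zfp36 were not tested because they were too dim. The part of these genes in the Hspa1a and Dnajb1 values was not tested.

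**Figure D3:**
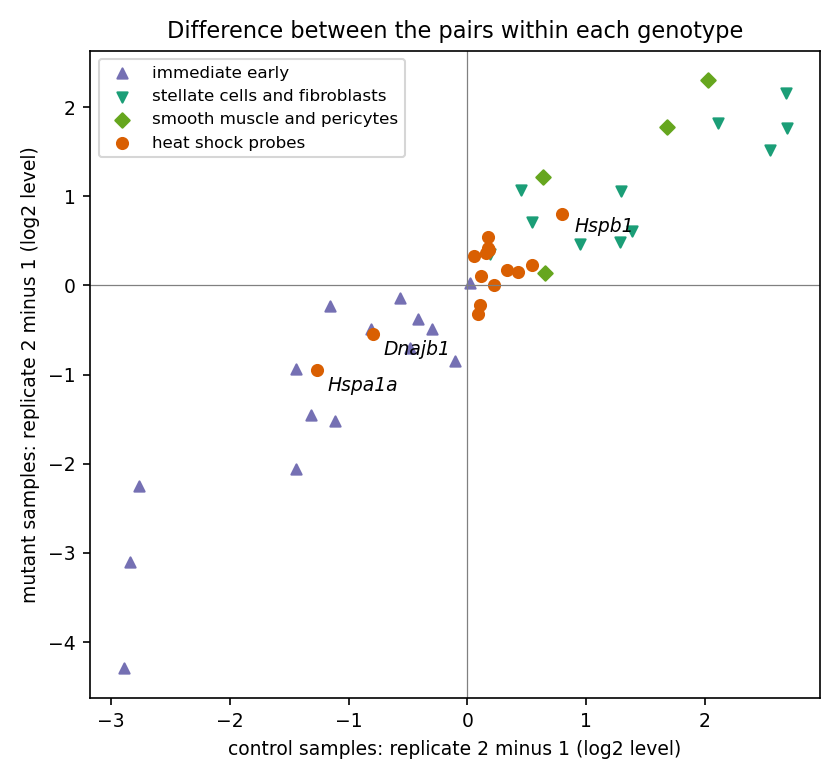
Difference between pair 2 and pair 1 in log2 level within the control samples (horizontal) and within the mutant samples (vertical) for the 15 heat shock probes and the tested immediate early, stellate or fibroblast, and smooth muscle genes. Hspa1a and Dnajb1 lie in the lower left with 14 of the 15 immediate early genes. In the upper right, with the stromal genes, lie 11 heat shock probes, of which Hspb1 (0.80, 0.81) is the farthest out.

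Genes of stromal cells were higher in mutant and higher in pair 2, as Hspb1, Hsp90aa1, Hspd1 and both Cryab probes were. The sizes differed: the median pair difference of stellate and fibroblast genes was 1.29 in control and 1.06 in mutant. It was 0.0045 in mutant for the Cryab probe at base 1012, and 0.056 in control for Hspd1. The Hspe1 probes were higher in pair 2 in both genotypes too, with ratios of opposite sign on the arrays. All 11 stellate and fibroblast genes were higher in mutant on both arrays, with medians of 1.36 and 1.59, and 7 passed the test. These 7 calls were lost in the same settings as that of Egr1. Their summed level was 13.0 in control pair 1, 15.0 in control pair 2, 14.7 in mutant pair 1 and 16.3 in mutant pair 2, so it too was higher in pair 2 in both genotypes. All were well above background in some sample, and Pdgfra was not in either control. The brightest Fbln1 probe averaged 1.29, and its other tested probe 0.06. Of 6 smooth muscle and pericyte genes 4 were tested, all 4 were higher on both arrays (medians 0.54 and 0.71) and 0 passed. Their summed level was 10.4 and 11.8 in control and 11.1 and 12.5 in mutant, and the muscle markers Des and Cnn1 were too dim to test. In bulk islets more cells of a type and more RNA per cell cannot be told apart, and the part of stromal cells in the Hspb1 and Cryab values was not tested.

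Most genes of several other cell types had the same sign between genotypes. Ratios were above 0 in both pairs for 6 of 7 endothelial genes (medians 0.47 and 0.49, 1 passed), 5 of 6 duct genes (0.59 and 0.81, 2 passed), 4 of 5 tested Schwann and neural genes (0.57 and 0.45, 0 passed) and 5 of 6 other endocrine genes (1.43 and 0.48, 0 passed). Leukocyte genes were above 0 in both pairs in 3 of 5 tested (medians 0.13 and 0.39, 0 passed), and Csf1r was below 0 in both. The endothelial exception was the brightest Kdr probe (-0.28 and -0.88), while the other Kdr probe averaged 0.37. The endothelial gene that passed was Vwf by its brightest probe (mean 1.60), while its other probe averaged 0.24. The summed endothelial level was 13.1 and 13.2 in control and 13.1 and 13.2 in mutant. Bright probes weigh most in that sum, and the brightest Kdr probe had the highest level of the list in both controls. Its levels were 12.60 and 12.41 in control and 12.32 and 11.53 in mutant, so the sum says little about the other 6 genes. The sign shared with Hspb1 and Cryab was not limited to stromal genes, and the part of these cell types was not tested either.

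The beta cell list was well above background in all samples for all 9 genes, Ins1 and Ins2 included, with medians of -0.57 on the pair 1 array and 0.25 on the pair 2 array. Acinar genes, which mark exocrine tissue around islets, had medians of 0.40 and -5.36, and their summed level was 20.7 and 22.0 in control and 21.1 and 17.1 in mutant. Leaving the acinar genes out of the fit called 0 of the 15 heat shock probes, with a lowest limma adjusted p of 0.232, and 0.756% of all tested probes. The heat shock ratios are the same in that fit, so the part of acinar tissue in them was not tested.

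The wider chaperone network was read from 69 further genes in 8 role groups, of which 63 were tested. None passed the test in either direction, where 0.368% of all tested probes were called higher and 0.0135% lower. Ratios were above 0 on both arrays in 15 of the 63, against 32.3% of all tested probes. They were below 0 on both in 15, against 25.3%. The network medians were 0.02 on the pair 1 array and -0.07 on the pair 2 array. At an unadjusted limma p under 0.05, 3 of the 63 were higher (Fkbp4, Hspb2 and Serpinh1) and 1 was lower (Hsf1). Among all tested probes 8.16% were higher and 3.19% lower at that threshold.

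Hsf1, the factor that drives the heat shock response, had levels of 8.53 and 8.72 in control and 8.26 and 8.25 in mutant. Both mutant samples were below both controls, with ratios of -0.27 and -0.46 (limma adjusted p = 0.404). Hsbp1, which binds heat shock factor 1, had the highest mean among the regulators, at -0.07.

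Among Hsp70 relatives and their nucleotide exchange factors the means ran from -0.32 (Hspa12a) to 0.30 (Hspa12b). J-domain proteins, by their brightest probes, ran from -0.17 (Dnajc5, which acts on synaptic vesicles) to 0.25 (Dnaja4). The probes of these genes disagreed: means ran from -0.17 to 0.22 over 4 of Dnajc5, and were -0.00093 and 0.25 for 2 of Dnaja4. In the Hsp90 group, the co-chaperone Fkbp4 had ratios of 0.51 and 0.50 (limma adjusted p = 0.254), with levels of 8.30 and 8.39 in control and 8.80 and 8.88 in mutant that did not overlap. Its relative Fkbp5, a glucocorticoid-induced gene, had the lowest mean of the network at -0.51, which came from pair 2 alone (0.05 and -1.08).

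The small heat shock proteins ran from Hspb8 at -0.21 to Hspb2 at 0.57. Hspb2, a muscle-enriched gene next to Cryab, had levels of 6.71 and 7.66 in control and 7.31 and 8.20 in mutant, with ratios of 0.60 and 0.54 (limma adjusted p = 0.196). As for Hspb1, each mutant was above its own control and the genotypes overlapped. The subunits of the cytosolic chaperonin stayed between -0.12 (Cct3) and 0.23 (Cct2), and the mitochondrial folding and protease genes between -0.35 (Grpel1) and 0.05 (Clpp).

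Serpinh1 (Hsp47), the collagen chaperone of the endoplasmic reticulum, had the highest mean of the network. Its levels were 7.97 and 9.81 in control and 8.97 and 10.53 in mutant, with ratios of 1.00 and 0.72 and a mean of 0.86 (limma adjusted p = 0.0962). With a trended and robust prior it passed (limma adjusted p = 0.00816), and with no filter on dim probes it passed too (limma adjusted p = 0.0273). The collagen genes Col1a1 and Col1a2 were among the 7 stellate and fibroblast genes that passed, and their part in the Serpinh1 value was not tested.

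**Figure D4:**
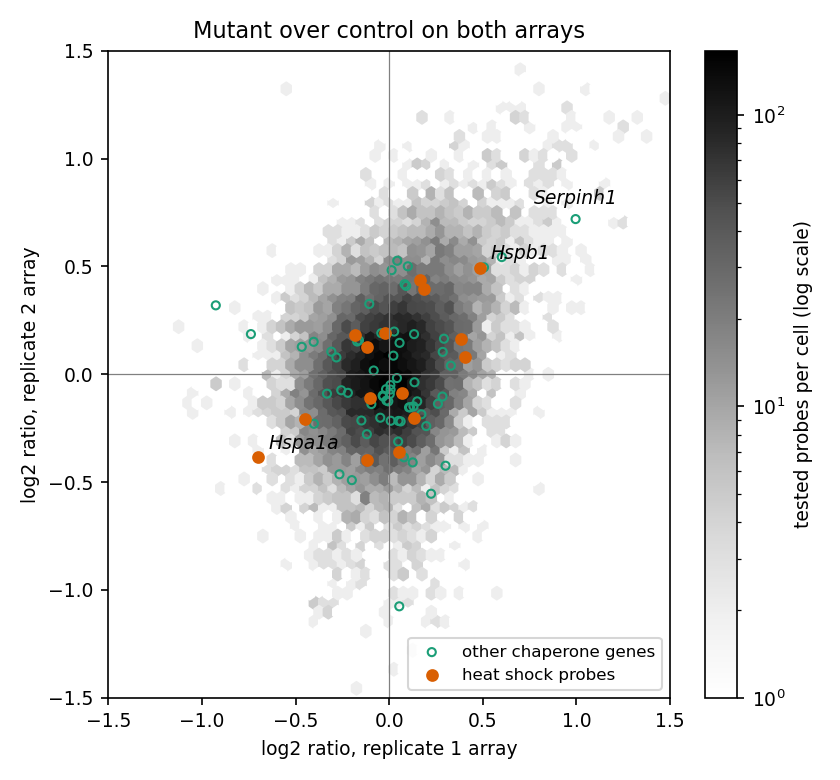
Log2 ratio on the pair 1 array against the pair 2 array for the 15 heat shock probes (filled), the 63 tested genes of the chaperone network (open) and all tested probes (grey cells, shaded by number on a log scale); the axes end at 1.5 in both directions. Most heat shock probes sit in the dense centre, Hspb1 (0.49, 0.49) and Hspa1a (-0.70, -0.38) at its edge, and Serpinh1 (1.00, 0.72) beyond it.

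The tested probes whose 4 levels followed Hspa1a most closely were 2 probes of C2cd4a and 1 each of Upk3a and Nfkbiz, plus 1 probe with no gene name. Likeness was the root mean square distance between levels centred on their own mean, over 4 samples. It was 0.080 and 0.096 for C2cd4a, 0.089 for Upk3a, 0.096 for Nfkbiz and 0.107 for the probe without a name, and 23 probes lay within 0.25. The first C2cd4a probe had levels of 9.16 and 7.91 in control and 8.28 and 7.49 in mutant. The Nfkbiz probe had levels of 8.21 and 7.13 in control and 7.75 and 6.61 in mutant. Both were lower in pair 2 and lower in mutant within each pair, as Hspa1a was. With 4 samples such a likeness is a description.

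With another normalization all the heat shock ratios were higher. When median centring replaced loess, the means of the brightest probes ran from -0.27 (Hspa1a) to 1.36 (Hspb1), and 9 of the 15 probes passed the test, all of them higher. In that setting 30.2% of all tested probes passed, 6664 higher and 71 lower, and all tested probes had a median of 0.62. The median of the heat shock probes exceeded it by 0.23, where with the ratios as reported the difference was -0.01. Median centring shifts bright and dim probes of an array alike, so the 0.23 cannot be read as particular to heat shock genes. In each of the other 9 settings 0 of the 15 heat shock probes passed. The filter that asked for both channels above background left 14 of them, without the Cryab probe at base 595. With processed signals, the series matrix, an offset of 0 or separate channels, 0 of all tested probes passed, so the 0 of 15 says nothing particular to the heat shock probes. In the rest of these settings 0.407% to 2.53% of all tested probes passed.

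**Figure D5:**
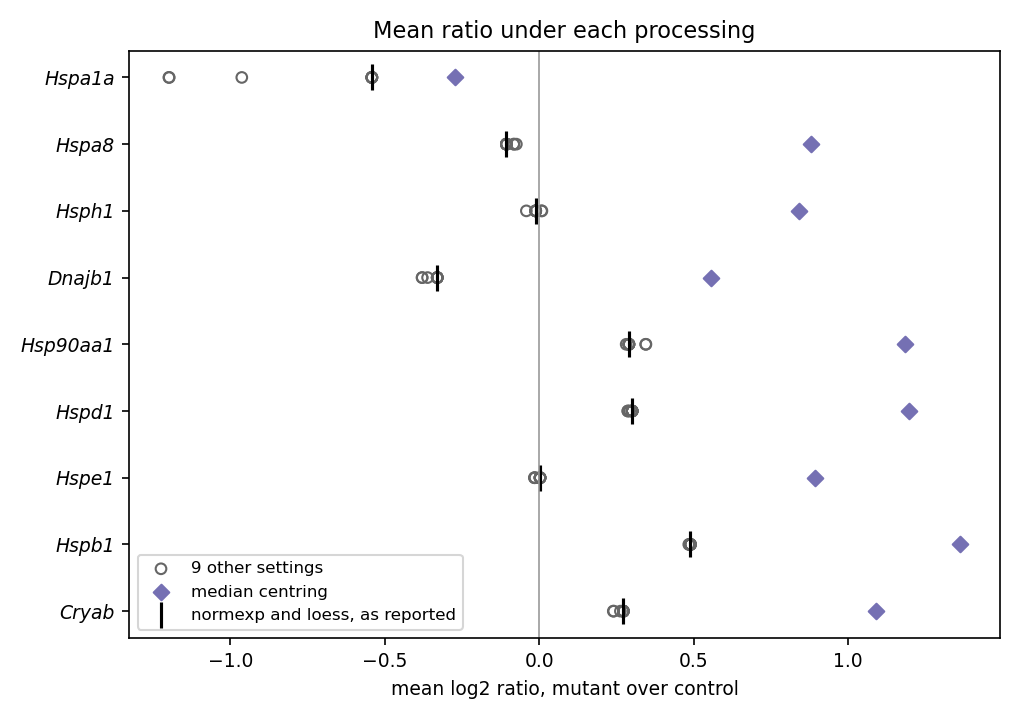
Mean log2 ratio of mutant over control for the brightest probe of each heat shock gene as reported (black tick), with median centring in place of loess (diamond) and in 9 other settings (open circles). The diamonds sit to the right of the ticks for all 9 genes, Hspa1a is the 1 gene whose diamond is below 0 (-0.27), and its circles reach -1.20.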

How the data were processed

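RNA of islets from 2 control and 2 RbΔK7 samples was hybridised as 2 control and mutant pairs to 2 two-colour Agilent arrays on 1 slide. Per the submitters' processing notes, the scans were quantified with Agilent Feature Extraction 10.7.3.1. The intensity columns, per the file headers, are each spot's mean signal and median local background per channel, and signals that the software had corrected and dye-normalized. The deposited log10 ratios, per the file headers, are red (mutant) over green (control) of those processed signals, and the authors' series matrix held the same log10 ratios (largest difference 0). Probe positions are on mm9, per the file headers.

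Here mean signals were corrected by normexp (offset 50; limma 3.58.1, R 4.3.3), which draws the ratios of dim probes towards 0. Ratios were normalized by loess within each array (span 0.3, control spots at weight 0), which assumes that most probes are alike in both channels at each brightness. Outlier spots (4 on each array) were left out, and 0 spots were saturated. Levels per sample came from the same values after Aquantile scaling of the arrays. A probe entered the test when either channel was well above background on each array. Well above background were 37.0% and 38.1% of the 59305 gene spots in control and 41.0% and 48.2% in mutant. Each probe's 2 ratios were compared with 0 by lmFit and eBayes (two-sided), and p-values were adjusted by Benjamini-Hochberg over 22266 probes, with a threshold of 0.05. The number of arrays limits the precision: 1 residual degree of freedom beside a prior of 4.90. The fit was tested on simulated data.

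Every probe of the 10 genes is named. Of the network, genes past the test and the highest and lowest mean of each role group are named, with the genes at an unadjusted p under 0.05, which the rule already holds. The result of 1 gene that the rule names is not reported here. The probe of highest mean intensity stands for a gene with several probes. Named through a GRCm38.p6 table were 26762 probes by accession, 3819 by symbol and 634 by synonym, and 24466 kept the file's name. Likeness to Hspa1a took the 5 nearest probes. Promoters are from RefSeq (GRCm38.p6). Exon and UTR positions of probes were not analysed here. The members and lists were chosen with earlier results of these data known.

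Mutant and control are paired by array, as each array holds 1 control and 1 mutant sample of the same replicate number. The labels call the replicates independently harvested. Alternatives were other signals and offsets, median centring, the series matrix, 2 filters, a trended robust prior, both channels as separate samples with and without the array as a block, 1 array at a time, the fit without acinar genes, and the mean of a gene's probes.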

Additional observations from a re-analysis of the deposited data

How the results depend on the processing

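Median centring in place of loess changed most calls. With it 9 of the 15 heat shock probes, 27 of the 63 tested chaperone network genes and 6735 (30.2%) of all tested probes passed. The median over all tested probes was 0.39 and 0.84 on the 2 arrays in that setting. Median centring turned the sign of Hsph1 (to 0.74 and 0.84), Dnajb1 (0.56), Hspa8 (0.74, 0.68 and 0.88) and the Hspe1 probe at base 629 (0.88). The Hsph1 probe at base 3094 and the Hspe1 probes at bases 493 and 632, all near 0, turned sign to 0.0079, -0.0084 and -0.015 with Agilent's processed signals and to 0.0090, -0.0091 and -0.014 with the series matrix. The Hspe1 probe at base 632 was also -0.015 with an offset of 0. The Cryab probe at base 595 had a mean of 0.51 with processed signals and 0.52 with the series matrix. The causes were not tested.

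With 85 calls among all probes as reported, 0 passed with processed signals (2351 at an unadjusted limma p under 0.05), with the series matrix (2355) and with an offset of 0 (2471). Calls numbered 355 without the filter on dim probes, 564 with the trended and robust prior and 168 without acinar genes. Serpinh1 was the 1 network gene that passed without the filter and the 1 with that prior. Called with both channels as separate samples were 0 probes, with the replicate block (2244 at an unadjusted limma p under 0.05, intraspot correlation 0.24) and without it (1497). With the replicate block the lowest limma adjusted p of a heat shock probe was 0.531. With the mean of a gene's probes 0 of 17104 genes passed in limma, and the lowest adjusted p was 0.264 for a heat shock gene and 0.124 for a network gene.

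Leaving out either array leaves 1 ratio per probe, which gives no test. No heat shock probe passed outside median centring, with adjusted p down to 0.0718 for Hspa1a (trended and robust prior). Hspa1a stayed below 0 and Hspb1, Hspd1, Hsp90aa1 and Cryab above 0 in all settings run and on both arrays. The 2 filters, the trended prior, the separate channels and the fit without acinar genes reuse the reported ratios, so signs could not change there. The series matrix holds the same ratios as the processed signals.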
